A study of Mus musculus with 4 samples.

Results

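The retinoid receptors and the proteins that carry, take up and store retinol were followed through 9 genes in ureters of mouse embryos: the retinoic acid receptors Rara, Rarb and Rarg, the retinoid X receptors Rxra, Rxrb and Rxrg, the plasma retinol carrier Rbp4, the retinol receptor Stra6, and Lrat, the enzyme that esterifies retinol for storage. They were chosen by gene name among the non-control probes of the array, which gave 14 of 39429 probes. Of these, 13 were among the 25591 probes well above background, so that all 9 genes were among the 19365 genes tested, out of 29875 named on the array. Ureters came from E14.5 embryos (the E counts embryonic days) of the NMRI strain. The mutants, called cDKO (conditional double knockout), carried Tbx18(cre/+), with cre driven from the locus of a ureteric mesenchyme gene, together with homozygous floxed alleles of the fibroblast growth factor receptor genes, Fgfr1(fl/fl) and Fgfr2(fl/fl). Controls were labelled Fgfr1(fl/?);Fgfr2(fl/?), so their other allele at either locus is unstated and no cre is listed. Each of 4 two-colour arrays paired cDKO RNA with control RNA of the same sex label, female on replicates 1 and 4 and male on replicates 2 and 3. Whether a replicate was an animal or a pool is not in the labels, and the p-values therefore reflect only how far these 4 extract pairs differed, which may be technical. In whole ureters, fewer cells of a type and less RNA per cell cannot be told apart.

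Retinol, the transport form of vitamin A, travels in blood bound to RBP4 and transthyretin and enters cells through STRA6. Inside, LRAT stores it as retinyl ester, or dehydrogenases oxidise it through retinal to retinoic acid. Retinoic acid binds a RAR, which sits on DNA as a dimer with an RXR at direct repeats of a short hexamer, and the ligand exchanges corepressors for coactivators there. In the mouse urinary tract, retinoic acid made in the mesenchyme acts on the ureteric bud and on the developing ureter. Rarb, Stra6 and Lrat are themselves known as genes that retinoic acid induces in various cells, and Rarb carries a well-known retinoic acid response element in its promoter.

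That element was present in the RefSeq promoter table (GRCm38.p6; 250 bases before to 50 after each start), where all 9 genes had entries, 20 promoters in all. The receptor hexamer was searched on both strands as AGGTCA, and also in the spelling AGTTCA and in the spelling GGTTCA. A direct repeat of any of these with 5 bases between occurred in 1 of the 20 promoters, that of Rarb, and in 0.0609% of all 32851 promoters. Both added spellings are the hexamers of that known Rarb site. Its match was therefore fixed by the choice of spellings, and the share of all promoters gives it no support. Repeats with 1 or 2 bases between occurred in 0 of the 20, against 0.1% and 0.21% of all promoters. Any of the hexamers alone occurred in 7 of the 20, from 6 of the genes, against 35% of all promoters. The Rarb site is shown because it is the only repeat found, at chr14:16575493-16575549 on the minus strand, with its hexamers in capitals, 53 to 37 bases before the start. These matches describe letters only.
Rarb promoter: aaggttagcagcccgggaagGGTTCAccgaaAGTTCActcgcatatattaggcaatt

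Some of the array's probes are shown as well, since the ratio of a gene below depends on which of its probes is read. Each line gives 30 bases of a probe, 5′ to 3′ as the scanner files list it, with the hexamer AATAAA, the common polyadenylation signal, in capitals. This hexamer occurred in 6 of the 14 probes and in 12.6% of all probes on the array. Coordinates are those of the files (mm9). The exon or UTR each probe lies in was not looked up, since no annotation of that build was used here.
Rxrg, upstream probe, chr1:169569496-169569555, plus strand: tgtgatgcttgtAATAAAgacaacctttct
Rxrg, downstream probe, chr1:169569624-169569683, plus strand: gccaagcctctgtacatataattggtttaa
Rarb, downstream probe, chr14:17263367-17263426, minus strand: ttccatggagtctcctggcaaagAATAAAt
Rarb, upstream probe, chr14:17264648-17264707, minus strand: agttcaagtgggaatatagcagagcacagt
Stra6, chr9:58001701-58001760, plus strand: tgtgctctctgtAATAAAtgtgcctctgag
Rbp4, chr19:38191120-38191179, minus strand: caaacttggtttattaaacatatagtcacc

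The arrays held 157716 spots each, none saturated. Between 66.1% and 71.8% of the spots were well above background in cDKO channels, and between 64.9% and 72.6% in control channels. Replicates 1 and 2 lay on slide 1, and replicates 3 and 4 on slide 2, each slide with its own scan and scanner, so the ratios of the 9 genes are also given by slide. The uncorrected median signals of cDKO and control channels were 373 and 169 on replicate 1 and 138.7 and 417.3 on replicate 2. On replicates 3 and 4 they were 383.4 and 301.7, and 333.2 and 373.4. Over all genes tested, the ratios of 2 arrays correlated at a Pearson r of 0.51 (replicates 1 and 2) down to 0.006 (replicates 2 and 3). Between replicates 3 and 4 it was 0.11. The ureter label was checked against marker genes: all 11 markers of ureteric mesenchyme, all 9 of smooth muscle and all 13 of urothelium were well above background. Markers of neighbouring or other tissues were measured too: 9 of 10 of kidney and nephron progenitors, 5 of 9 of gonad and adrenal (only 8 of which were on the array) and 5 of 8 of liver. Among them were Wt1 and Cited1 of the kidney (mean levels 13.09 and 12.72 in cDKO channels, 12.83 and 12.60 in control channels), Cyp17a1 of gonad and adrenal (12.34 in cDKO channels, 12.45 in control channels) and Apoa2 of liver (11.25 in cDKO channels, 11.17 in control channels). Alb, Apoa1 and Fgb of liver were not well above background.

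None of the 9 genes passed the test of cDKO against control at an adjusted p under 0.05 (limma with Benjamini-Hochberg adjustment), where 0.852% of all genes did. With each gene read at its brightest probe, the largest difference was that of Stra6, which was 1.64-fold higher in cDKO ureters (log2 ratio 0.71 ± 0.17, SE, n = 4 arrays, adjusted p = 0.109). The smallest p belonged to Rbp4, with a log2 ratio of -0.37 ± 0.07 (adjusted p = 0.0746). At an unadjusted p under 0.05 these 2 of the 9 genes passed, against 19.6% of all genes, and 4 of their 13 kept probes did (those of Rbp4 and Stra6, the brightest of Rarb and the dimmer of Rxrg), against 18.9% of all probes. Rarb, Rbp4 and Stra6 had the same sign on all 4 arrays, as did 25.2% of all genes. In the same 3 genes the 4 cDKO levels did not overlap the 4 control levels, against 8.01% of all genes. The median log2 ratio of the 9 genes was 0.05, with 5 above 0 and 4 below, beside 0.01 over all genes tested.

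**Figure D1:**
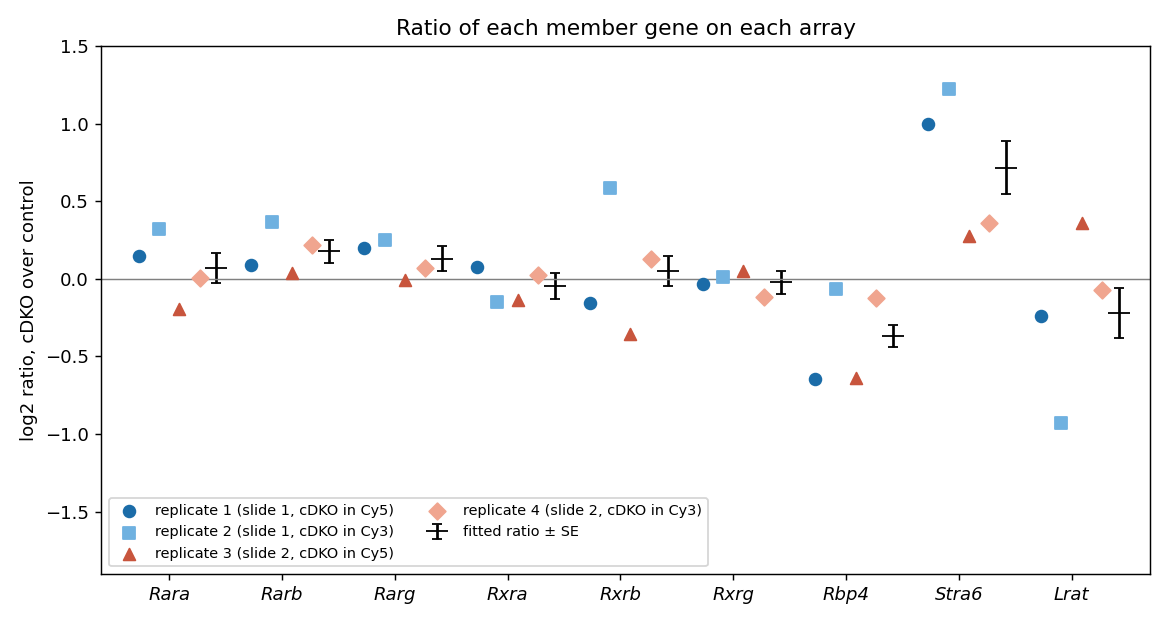
The log2 ratio of cDKO over control (vertical axis) of each of the 9 genes on each of the 4 arrays, coloured by slide, with the fitted ratio and its SE as a black bar. Stra6 lies above 0 on all 4 arrays with the slide 1 arrays at 1.00 and 1.22, Rbp4 lies below 0 on all 4, and the other genes lie near 0 or on both sides of it.

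Among the retinoic acid receptors, Rarb was read at its brightest probe at channel levels (log2 signal after scaling between arrays) of 14.29, 14.49, 14.21 and 14.31 in the cDKO channels of replicates 1 to 4, against 14.20, 14.13, 14.17 and 14.10 in the control channels. Every cDKO level lay above every control level, by a small margin. The log2 ratio was 0.18 ± 0.07 (95% interval 0.00 to 0.36, adjusted p = 0.257). Rara, the most broadly expressed receptor of the family, had a level of 13.93 ± 0.17 in cDKO channels and 13.86 ± 0.33 in control channels (SD, n = 4 each) and a log2 ratio of 0.07 ± 0.10 (adjusted p = 0.744). Its second probe gave 0.12 ± 0.10. Rarg, a receptor prominent in skin and cartilage, had a level of 14.31 ± 0.18 in cDKO channels and 14.18 ± 0.28 in control channels, and a log2 ratio of 0.13 ± 0.08 (adjusted p = 0.427). The cDKO and control levels of Rara and of Rarg overlapped. On slide 1 the log2 ratios of Rara, Rarb and Rarg were 0.23, 0.23 and 0.22, and on slide 2 they were -0.10, 0.13 and 0.03. The 95% intervals reached from -0.16 to 0.30 for Rara and from -0.06 to 0.32 for Rarg.

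The second kept probe of Rarb, 1221 bases upstream of the first, gave the opposite sign. Its levels were 10.68, 10.56, 10.82 and 10.82 in cDKO channels, against 10.86, 11.08, 10.86 and 10.94 in control channels, so that here every cDKO level lay below every control level. The log2 ratio at that probe was -0.22 ± 0.09 (adjusted p over the 25591 probes tested = 0.271). Another Rarb probe, assigned to another transcript by its accession and 386716 bases farther upstream, was not well above background on every array and was not tested. Its mean level was 6.84 ± 0.09 in cDKO channels and 6.88 ± 0.10 in control channels. The difference between the first and the second Rarb probe was 0.40 ± 0.11 in log2 ratio and positive on all 4 arrays, but did not pass adjustment over the 6226 such pairs on the array (limma, unadjusted p = 0.0179, adjusted p = 0.398). No pair on the array passed, and 11.5% of pairs had an unadjusted p under 0.05. This test of probe pairs was added after the values of Rarb and Rxrg had been seen.

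The retinoid X receptors pair with the RARs and with many other nuclear receptors. Rxra, the main RXR of most embryonic tissues, had a level of 8.76 ± 0.07 in cDKO channels and 8.81 ± 0.08 in control channels, with a log2 ratio of -0.05 ± 0.08 (95% interval -0.24 to 0.15, adjusted p = 0.80). Its second probe, 3405 bases upstream, gave 0.10 ± 0.07. On slides 1 and 2 the brightest probe of Rxra gave -0.04 and -0.06, that of Rxrb 0.21 and -0.11, and that of Rxrg -0.01 and -0.03. Rxrb had a level of 14.35 ± 0.26 in cDKO channels and 14.30 ± 0.15 in control channels. Its log2 ratios were -0.16, 0.58, -0.35 and 0.13, negative where cDKO RNA was in the red dye (Cy5, replicates 1 and 3) and positive where it was in the green dye (Cy3). The fit with a dye term gave 0.05 ± 0.10 (95% interval -0.19 to 0.28, adjusted p = 0.834). The dye effect of Rxrb was -0.31 ± 0.10 (unadjusted p = 0.0187, adjusted p = 0.508), in a test that called 0 of all genes and gave an unadjusted p under 0.05 in 8.8%.

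Rxrg, which has a narrower expression than the other RXR genes, differed between its probes. At the brightest probe the levels were 11.38, 11.34, 11.59 and 11.43 in cDKO channels, against 11.42, 11.33, 11.54 and 11.54 in control channels, and the groups overlapped. The log2 ratio there was -0.02 ± 0.07 (95% interval -0.20 to 0.15, adjusted p = 0.899). At the other probe, which begins after a gap of 68 bases downstream, the levels were 9.30, 9.38, 8.89 and 9.19 in cDKO channels, against 8.28, 8.02, 8.66 and 8.79 in control channels. Here every cDKO level was above every control level. The log2 ratio at the downstream probe was 0.75 ± 0.19 (95% interval 0.30 to 1.20, adjusted p over probes = 0.122, with 0.594% of all probes called). The upstream probe holds AATAAA and the downstream probe does not, as the sequences above show. Upstream minus downstream, the ratios differed by -1.05, -1.35, -0.18 and -0.52 on replicates 1 to 4, or -0.78 ± 0.20 in the fit (limma, unadjusted p = 0.0118, adjusted p over pairs = 0.398). The downstream ratio was 1.19 on slide 1 and 0.31 on slide 2, and that difference between slides passed over all probes (adjusted p = 0.0291, with 1.06% of probes called).

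**Figure D2:**
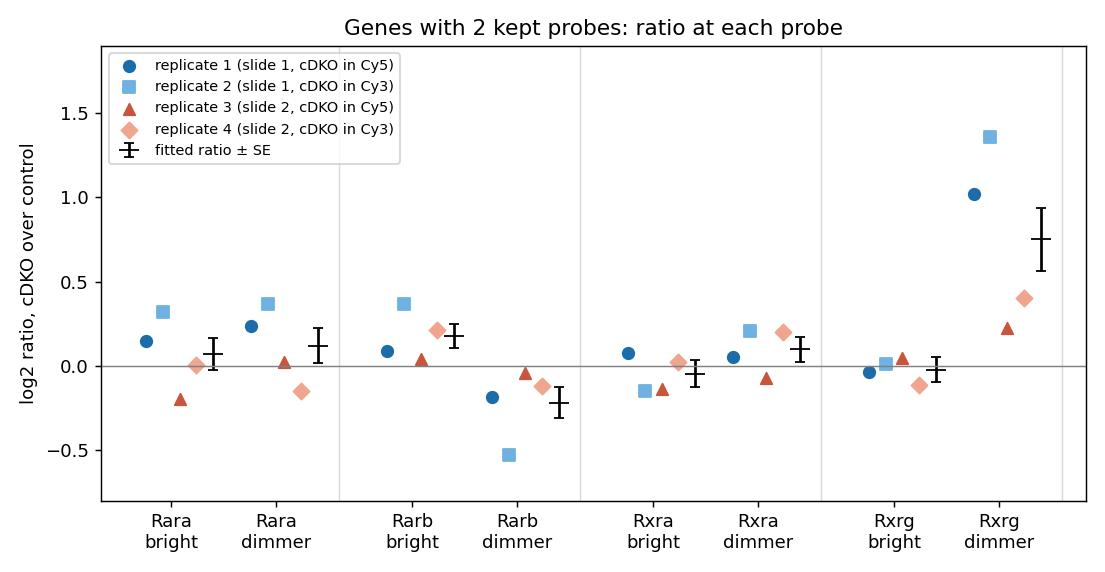
The log2 ratio of cDKO over control (vertical axis) at both kept probes of the 4 genes that have 2, on each array, with the fitted ratio and its SE. The bright Rxrg probe lies between -0.12 and 0.05 while its dimmer, downstream probe lies at 0.22 to 1.36, and the Rarb probes lie on opposite sides of 0.

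Of the transport genes, Rbp4, which encodes the carrier of retinol in plasma, had levels of 10.73, 10.95, 10.86 and 10.92 in cDKO channels, against 11.38, 11.01, 11.49 and 11.04 in control channels. Every cDKO level was below every control level, and the control channels labelled with the green dye were the highest. The log2 ratio was -0.37 ± 0.07 (95% interval -0.54 to -0.20), or 0.775-fold, with -0.36 on slide 1 and -0.38 on slide 2. By dye, it averaged -0.64 on the arrays with cDKO RNA in red and -0.09 on those with cDKO RNA in green. The dye effect of Rbp4 was -0.28 ± 0.07 (unadjusted p = 0.00709, adjusted p = 0.427). Without a dye term the adjusted p of the genotype ratio was 0.187, with median centring in place of loess it was 0.663, and with a slide term beside the dye it was 0.0137, where 12.5% of all genes were called. Ttr, which encodes the transthyretin that binds RBP4 in plasma, gave log2 ratios of -0.53, -0.75, -0.66 and -0.37 (-0.58 ± 0.09, adjusted p = 0.0515). Its signal was low, with a mean level of 7.55 in cDKO channels and 8.13 in control channels. Of the 5 measured liver markers, Ttr among them, 3 lay above 0 and 2 below. The genes whose ratios over the 4 arrays lay nearest to those of Rbp4, by Euclidean distance, were Egfl7 (0.156), Abhd14b (0.174) and Prrx2 (0.2). All 3 share the lower ratios on replicates 1 and 3.

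Stra6, which encodes the cell surface receptor that takes up retinol from RBP4, had levels of 12.52, 12.86, 12.21 and 12.22 in cDKO channels, against 11.52, 11.64, 11.93 and 11.86 in control channels. Every cDKO level was above every control level. The log2 ratios were 1.00 and 1.22 on slide 1 and 0.28 and 0.36 on slide 2, so that the 2 arrays of a slide lay close together and the slides apart. Slide 1 minus slide 2, the difference in the cDKO effect was 0.79 ± 0.14 and passed the test over all genes, if barely (adjusted p = 0.0497, with 0.893% of genes called). That fit, with 2 arrays per slide, had 1 residual degree of freedom. The 95% interval of the ratio over all 4 arrays was 0.30 to 1.12. Several settings put Stra6 past the threshold: a slide term beside the dye (adjusted p = 0.000933), slide 1 alone (0.00951, where 2.85% of genes were called), centring each array on its median in place of loess (0.00871, where 1.32% were called), and leaving out replicate 4 (0.0398). Slide 2 alone gave a log2 ratio of 0.32 with an adjusted p of 0.658, in a fit that called 0 genes and gave 1346 an unadjusted p under 0.05. With the slide as a term, what separates the slides no longer counts as error, so that fit's p-values leave out part of the spread between arrays.

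Lrat had levels of 8.67, 8.24, 8.41 and 8.48 in cDKO channels, against 8.91, 9.18, 8.05 and 8.55 in control channels, and the groups overlapped. Its log2 ratios were -0.24 and -0.93 on slide 1 and 0.36 and -0.07 on slide 2, and the fitted value was -0.22 ± 0.16 (95% interval -0.61 to 0.17, adjusted p = 0.502). The difference between slides did not pass (-0.73, adjusted p = 0.0710). The control level on replicate 2 was the highest of the 8 and that on replicate 3 the lowest.

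**Figure D3:**
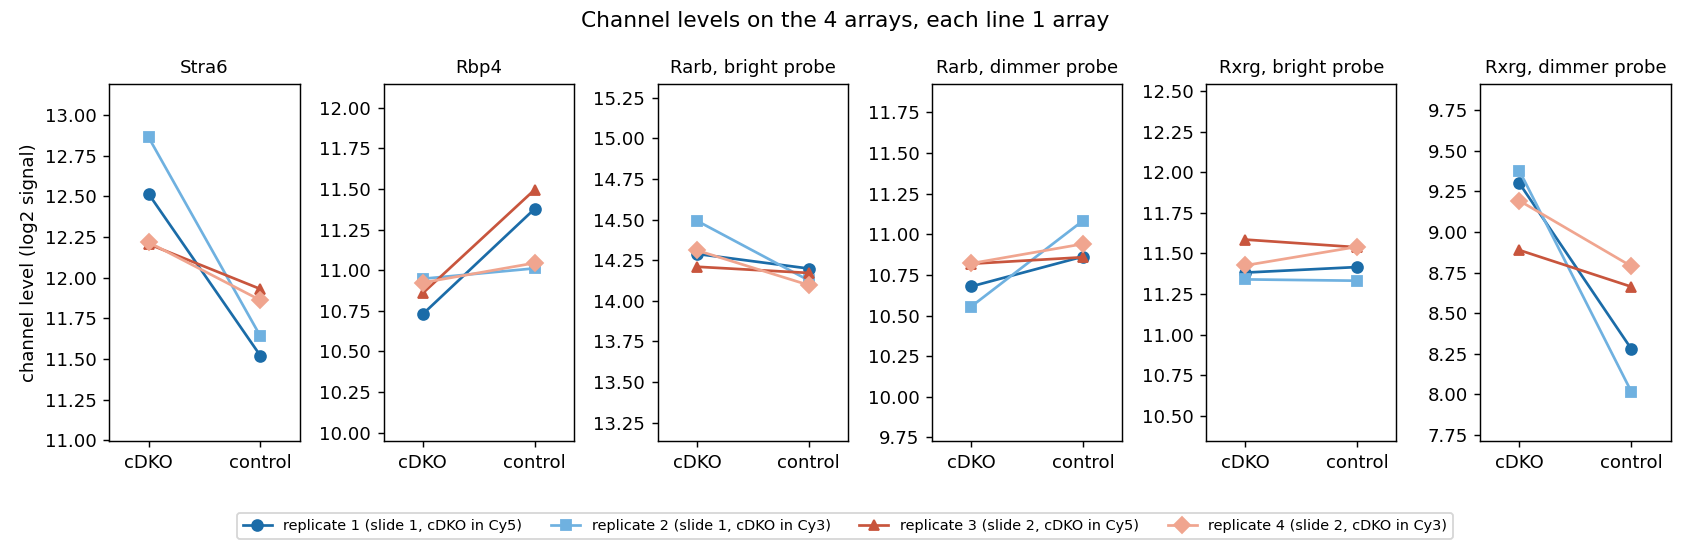
Channel levels (log2 signal, vertical axis, each panel spanning the same range) of cDKO and control RNA on the 4 arrays, each line an array, for Stra6, Rbp4 and both kept probes of Rarb and Rxrg. The levels of the groups do not overlap in any panel except that of the bright Rxrg probe, and the slopes of Stra6 and of the dimmer Rxrg probe are steeper on slide 1 than on slide 2.

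Between the sex labels the cDKO effect did not differ past the threshold for any of the 9 genes, each with an adjusted p of 1. No gene on the array was called in that test, and 1.07% had an unadjusted p under 0.05. The log2 ratios of Stra6 were 0.68 on female-labelled arrays and 0.75 on male-labelled ones, and those of Rbp4 were -0.39 and -0.35.

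**Figure D4:**
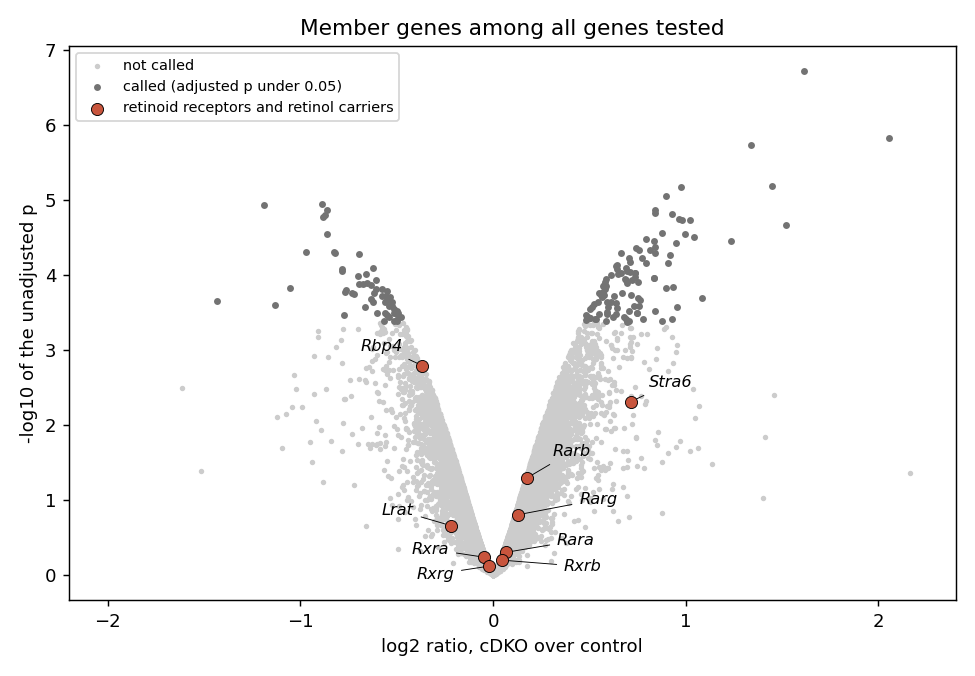
Each gene tested by its log2 ratio of cDKO over control (horizontal axis) and -log10 of its unadjusted p (vertical axis), with called genes in dark grey and the 9 genes in red. Rbp4 sits highest of the 9, below the called genes and below other genes that were not called, and Stra6 lies farthest out.

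Around these receptors and carriers, the lists of other retinoid pathway genes held 4 called genes, 3 higher and 1 lower, where 0.553% of all genes rose and 0.3% fell. Among enzymes of retinoic acid synthesis, 1 of 8 measured genes rose, Aldh1a3, an enzyme that oxidises retinal (log2 ratios 2.20, 2.43, 1.61 and 1.97; adjusted p = 0.012), and the list's median was 0.08. Among enzymes of retinoid reduction and retinoic acid breakdown, 1 of 7 rose, Cyp26a1, which oxidises retinoic acid (0.65, 0.59, 0.73 and 0.97; adjusted p = 0.0343), with a median of 0.00. The signal of Cyp26a1 was low in control channels, with a mean level of 7.89, against 8.63 in cDKO channels. The ratios of Aldh1a3 and Cyp26a1 have the same sign on all 4 arrays, as do those of 25.2% of all genes. Since both genes were named because these same ratios were called, the shared sign adds no further support. Of the 5 measured intracellular binding proteins all lay below 0 (median -0.16) and 1 fell, Crabp1, which binds retinoic acid in the cytosol (-0.58, -0.54, -0.69 and -0.81; adjusted p = 0.0356). Of the 9 measured genes for retinol uptake, carotenoid cleavage and ester handling, 1 rose, Lrp2, which encodes megalin, an endocytic receptor with RBP4 among its ligands (1.08, 0.63, 0.91 and 0.42; adjusted p = 0.0282), with a median of 0.05. The counts of calls in these lists depended on the arrays: 1 gene was called without replicate 1 and 7 without replicate 4. Without the filter on dim probes 0 were called, in a fit over 29875 genes that called 1 gene and gave 4836 an unadjusted p under 0.05.

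The proteins that RAR and RXR dimers work through showed no call. Of 12 coactivator genes 9 lay above 0 (median 0.10), and the smallest p values belonged to Ncoa2, a p160 coactivator (0.30 ± 0.08, adjusted p = 0.114), and Prmt1, an arginine methyltransferase (0.28 ± 0.08, adjusted p = 0.147). Of 10 measured corepressor genes 8 lay above 0 (median 0.14), and the smallest p was that of Lcor, a ligand-dependent corepressor (0.48 ± 0.10, adjusted p = 0.0781). Of 12 measured other nuclear receptors that pair with RXR 7 lay above 0 (median 0.06), led by Nr4a2 (0.35 ± 0.07, adjusted p = 0.087) and the thyroid hormone receptor Thrb (0.31 ± 0.07, adjusted p = 0.107). The signal of Thrb was low, with a mean level of 7.31 in cDKO channels and 7.00 in control channels. Among 16 measured genes that retinoic acid induces in other cells, 12 lay above 0 with a median of 0.18, and Cyp26a1 was the only call. Over all genes the median was 0.01, with 10196 above 0 and 9169 below.

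**Figure D5:**
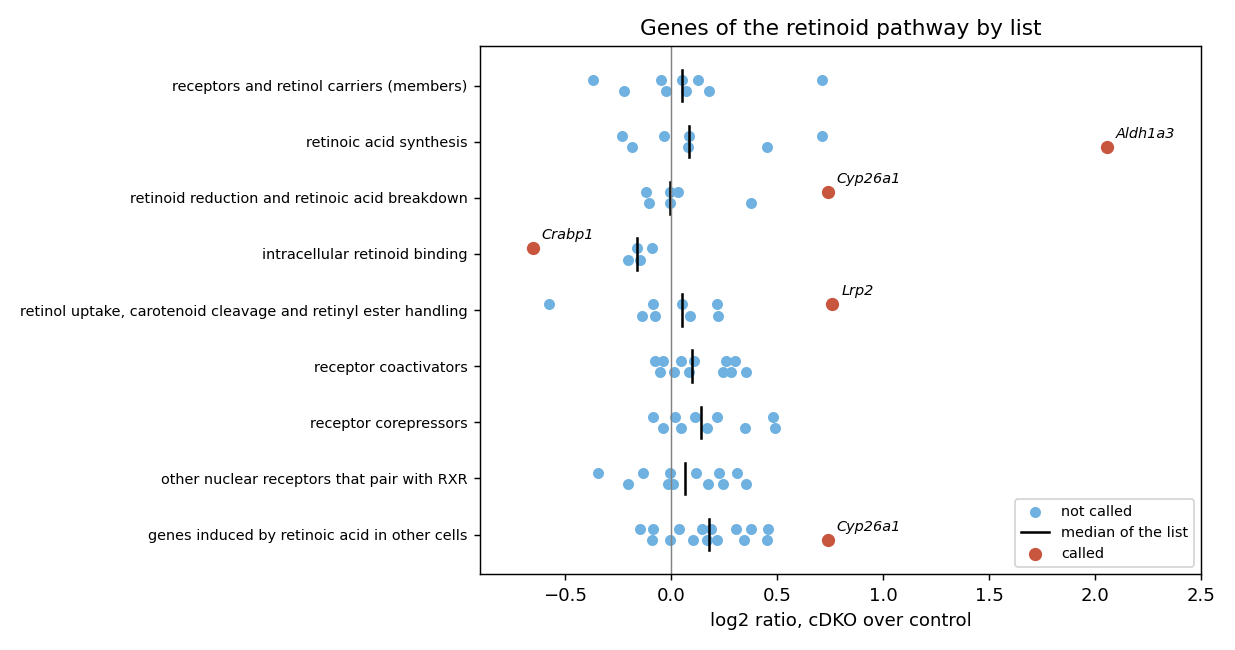
The log2 ratio of cDKO over control (horizontal axis) of every measured gene in the retinoid lists, 1 list per row, with called genes in red and the list's median as a black bar. Aldh1a3, Cyp26a1 and Lrp2 lie to the right and Crabp1 to the left, while the receptors, coactivators and corepressors lie within 0.5 of 0.

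Among the marker genes of cell types, 8 passed the test of genotype, 1 higher and 7 lower, where 0.553% of all genes rose and 0.3% fell. The lists themselves were not tested. The count of 8 calls became 1 without replicate 1, 2 without replicate 2 and 14 without replicate 4. Of 11 markers of ureteric mesenchyme, the tissue in which Tbx18-driven cre acts, 9 lay above 0 (median 0.38) and 1, the Hedgehog receptor gene Ptch1, rose. Their summed linear signal was 163300 to 224200 in cDKO channels and 130000 to 202800 in control channels. Of 9 smooth muscle markers 8 lay above 0 (median 0.24, 0 called), at 85990 to 117800 in cDKO channels and 77050 to 98230 in control channels. Of 13 urothelial markers 10 lay below 0 (median -0.05), and 2 fell, the uroplakin gene Upk1b and the keratin gene Krt20. Their summed signal was 171500 to 223700 in cDKO channels and 182000 to 198800 in control channels. Most of that sum came from the keratin genes Krt18 and Krt8, neither of them called. Their mean levels were 16.8 and 15.8 in cDKO channels and 16.7 and 15.9 in control channels. Upk1b, at 8.9 in cDKO channels and 10.4 in control channels, added little, so the sum does not show the fall of such dimmer genes. In these 3 lists the summed signals of the groups overlapped. All such sums weigh the brightest genes most, and their ranges do not use the pairing of channels on an array.

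Of 9 erythroid markers 9 lay below 0 (median -0.30) and 2 fell, with summed signals of 339200 to 473600 in cDKO channels and 448400 to 553700 in control channels. Of 10 macrophage and leukocyte markers 9 lay below 0 (median -0.34) and 1 fell, at 16000 to 19860 in cDKO channels and 21190 to 24690 in control channels. Of 8 endothelial markers 7 lay below 0 (median -0.32) and 1 fell, at 23020 to 27980 in cDKO channels and 26140 to 35190 in control channels. The 4 measured mesothelial markers lay below 0 (median -0.46) and 1 fell, at 15900 to 26520 in cDKO channels and 27210 to 34070 in control channels. The summed signals overlapped between groups for the erythroid and endothelial lists and did not for the leukocyte and mesothelial lists. Some retinoid lists separated as well, with cDKO higher. For retinoic acid synthesis the sums were 38950 to 40580 in cDKO channels and 29520 to 33980 in control channels. For retinoid reduction and breakdown they were 62040 to 71260 and 52340 to 61180, and for coactivators 183100 to 195100 and 155500 to 175300. The sums of the other retinoid lists overlapped. How often sums of randomly picked genes separate was not computed, while the levels of 8.01% of all single genes did not overlap. Most of the mesothelial sum came from the keratin gene Krt19, which was not called (mean level 14.2 in cDKO channels, 14.7 in control channels). Msln, the called gene, lay at 10.5 and 11.3. No marker was called in the lists of kidney and nephron progenitors (9 measured, median 0.12, 18500 to 22810 in cDKO channels and 13680 to 21050 in control channels), gonad and adrenal (5 measured, median 0.11, 4731 to 9374 in cDKO channels and 5206 to 8168 in control channels) or neural crest, glia and neurons (7 measured, median -0.02, 73950 to 92320 in cDKO channels and 69740 to 96630 in control channels). The liver, whose cells make most plasma RBP4, had 5 of 8 markers measured and 0 called (median 0.05, with 0.18 on slide 1 and -0.49 on slide 2), at 2822 to 6695 in cDKO channels and 2571 to 9299 in control channels. The part of these cell types in the ratios of Stra6, Rbp4 and the other genes was not tested.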

How the data were processed

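Per the labels' protocols, 150 ng of total RNA was labelled by the authors with Cy3 or Cy5 for Agilent arrays. The deposited scanner files, per the file headers from Agilent Feature Extraction 10.7.3.1 on build mm9, give mean spot and background intensity, processed intensity, and a log10 ratio (red over green). A value table the authors deposited holds another measure, a signed fold per probe with no value between -1 and 1, a column median of 1 and between 10624 and 11152 probes at exactly 1. The sources used here do not say how it was centred. Its correlation with the scanner cDKO over control ratio was 0.909 to 0.945, so a positive fold means higher in cDKO.

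Mean intensity was corrected with normexp (offset 50), log2 ratios were normalized by loess within arrays (span 0.3) and the 4 spots of a probe were averaged. A probe was kept with at least 3 spots detected (well above background) on every array in the cDKO or in the control channel. The 9 genes tested all passed in both channels with all 4 spots. The brightest kept probe stood for a gene. Names came from RefSeq accessions for 28328 probes, current symbols for 3400, synonyms for 243 and the file otherwise for 7458. The fit used limma 3.58.1 in R 4.3.3 (lmFit, eBayes, dye term), two-sided, with Benjamini-Hochberg adjustment over 19365 genes, 25591 probes or 6226 probe pairs, called under 0.05. The fit had 2 residual degrees of freedom and 4.53 of the prior. With a slide term, as in every test of a difference between slides, 1 residual degree of freedom was left. The number of arrays, 4, limits the precision.

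The genes and lists were chosen with earlier results of these data known. Named beyond the 9 genes were the called genes of each retinoid pathway list, or, in such a list without calls, the 2 with the smallest p, and the 3 genes nearest to the gene with the smallest p. That rule did not cover the marker lists. Ttr and the markers named were chosen after their values were seen.

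In simulated arrays for cDKO against control, 200 of 19365 genes were changed. The fit called 70.1% of the 1.5-fold, 95.5% of the 2-fold and 100% of the 3-fold changes, and 4.84% of its calls were false. The simulated noise was drawn independently for each gene and array, with no slide, scanner or dye effect. These shares therefore need not hold for the real arrays, where the slides differed for some genes. Replicates of cDKO and control are paired by sharing an array, and the ratio is the paired value. Protein sequences were not used here. In the corepressor list, 1 gene that the naming rule selects is not reported here. The alternatives were other background corrections, normalizations, filters, spot and probe summaries, terms for slide or sex, no dye term, the authors' deposited table, unpaired channels, and each array left out.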

Additional observations from a re-analysis of the deposited data

Results flagged for a closer look

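Some values stood out. For Stra6, slide 1 minus slide 2 gave a difference of 0.79 in the log2 ratio of cDKO over control, past the threshold over all genes. At the downstream probe of Rxrg the same difference was 0.88, past the threshold over all probes. Both values have the 2 arrays of slide 1 above the 2 arrays of slide 2, and slide, scan and scanner cannot be told apart. Both come from fits with 1 residual degree of freedom.

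For 2 genes the arrays of the sex labels lay on opposite sides of 0, which cannot be told apart from a dye effect that differs between slides. The log2 ratio of Rxra averaged 0.051 on female-labelled arrays, with both above 0, and -0.15 on male-labelled arrays, with both below. That of Rxrg at its brightest probe averaged -0.074 on female-labelled arrays and 0.03 on male-labelled arrays. Neither difference passed its test (adjusted p = 1 for each).

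No gene had a single array far from the other 3 in its ratio or its levels, by Dixon's ratio over 39 groups of 4 values, of which chance flags about 1 in 20.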

How the results depend on the processing

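Over 18 alternatives, Rbp4 stayed between -0.40 and -0.35 in log2 ratio and passed the threshold under 1, the slide term. Stra6 stayed between 0.32 and 1.11 and passed under 4. Rarg kept its sign in all 18. The downstream Rxrg probe passed with the slide term, within slide 1 and with median centring.

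Direction turned in some fits, none of them past the threshold, and the cause was not tested. Within slide 2, Rara gave -0.095, Rxrb -0.113, Lrat 0.146 and the dimmer Rara probe -0.063. With the mean over a gene's probes, Rarb gave -0.02, Rxra 0.025 and Rxrg 0.364. On leaving out an array, Rara lay at -0.017 (without replicate 1) to 0.155, its dimmer probe at -0.009 (without replicate 2) to 0.248, Rxrb at -0.064 (without replicate 2) to 0.163, Rxra at -0.101 to 0.007 (without replicate 3) and Rxrg at -0.054 to 0.008 (without replicate 4).

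Genes called over the array numbered 165. They numbered 255 with median centring, 249 with the median of spots, 258 without the dye term, 2 with the sex term, 2418 with the slide term, 551 within slide 1, 0 within slide 2 (1346 at an unadjusted p under 0.05) and 1 without the filter, where 29875 genes were tested. Leaving out an array gave 34 (without replicate 1) to 403 (without replicate 4). Of the 9 genes, 0 were called, against 1 with median centring, 1 within slide 1, 2 with the slide term and 0 to 1 on leaving out an array. The retinoid lists had 4 calls, 0 without the filter, 21 with the slide term and 1 to 7 on leaving out an array. The marker lists had 8 calls, 0 without the filter, 45 with the slide term and 1 to 14 on leaving out an array (1 without replicate 1, 2 without replicate 2, 14 without replicate 4). With no replicate block, that is with the pairing of channels ignored, 76 genes were called and 0 of the 9, and adjusted p was 0.127 for Stra6 and 0.135 for Rbp4. In that unpaired fit the share of calls that rose was 73.7%, against 64.8% in the paired one.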

Other observations

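The genes nearest to Stra6 in their ratios over the 4 arrays, a list made after its values were seen, were Sstr1, a somatostatin receptor gene (log2 ratios 0.98, 1.24, 0.24 and 0.38; distance 0.0475), Tagln2 (0.90, 1.18, 0.14 and 0.27; distance 0.189) and Usp2, a deubiquitinase gene (1.03, 1.19, 0.51 and 0.41; distance 0.24). None of the 3 was called (adjusted p = 0.111 for Sstr1, 0.145 for Tagln2 and 0.0706 for Usp2).

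Outside the named rule, the other retinaldehyde dehydrogenase genes lay above 0 on all 4 arrays without passing the test. Aldh1a1 gave log2 ratios of 1.02, 0.95, 0.65 and 0.24 (0.71 ± 0.13, adjusted p = 0.0669). Aldh1a2, which makes retinoic acid in embryonic mesenchyme, gave 0.49, 0.59, 0.51 and 0.22 (0.45 ± 0.09, adjusted p = 0.0734). Dhrs3, which reduces retinal to retinol, gave 0.43, 0.47, 0.21 and 0.40 (0.38 ± 0.08, adjusted p = 0.0842). These 3 genes were picked after their values were seen.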
